A study of Homo sapiens with 3 samples.

Results

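A group of 7 hairpins whose miRNAs are linked to tumours or to inflammation was followed through small RNA-seq libraries of a transformed human cell line. The group held hsa-mir-21, hsa-mir-221, hsa-mir-222, hsa-mir-31, hsa-mir-146a, hsa-mir-146b and hsa-mir-155. Its members were chosen by the name of the hairpin, and both arms of each were taken, which gave 14 mature miRNAs among the 2580 endogenous mature miRNAs of the table. The question was which of these miRNAs the line holds, which it lacks, and whether their counts differed once miR-1 or miR-122 had been induced. The cells were Flp-In T-REx 293, derived from HEK293, a human embryonic kidney line that was transformed with adenovirus DNA. There was 1 library of lentivirally transduced cells for each vector, namely the empty vector (control), a miR-1 hairpin and a miR-122 hairpin, each hairpin lying in an intron of an inducible GFP cassette. Geneticin at 1 mg/mL selected the cells for 6 days, and 1 ug/mL doxycycline was then given for 7 days to all lines, the empty vector line included. With 1 library per group there is no test between groups, and every interval given here is a 95% interval for counting error within a library.

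Primary hairpin transcripts are cut by Drosha and then by Dicer into a short duplex, of which one strand, the guide, is kept by Argonaute while the other, the passenger, is mostly degraded. The guide finds its target mRNAs chiefly through its seed, bases 2 to 8 from the 5′ end, so miRNAs with the same seed share most predicted targets. miR-21 is raised in most solid tumours and represses the tumour suppressor PDCD4. miR-221 and miR-222 repress CDKN1B, the cell cycle inhibitor p27, and the receptor KIT. miR-31 is gained in some carcinomas and lost in others. miR-146a is induced through NF-κB, and miR-146a and miR-146b damp NF-κB signalling through TRAF6 and IRAK1. miR-155 is a product of activated lymphocytes and macrophages that drives B-cell lymphoma.

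The guide sequences show which of these miRNAs can be told apart by their reads and which share a seed. They are the RefSeq mature sequences (GRCh38.p14), with the seed in capitals, and they include miR-590-5p because it carries the seed of miR-21-5p. Sequences were found for 11 of the 14 arms.
miR-21-5p: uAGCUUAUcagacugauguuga
miR-590-5p: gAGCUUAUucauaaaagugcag
miR-221-3p: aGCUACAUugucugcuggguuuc
miR-222-3p: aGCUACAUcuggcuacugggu
miR-31-5p: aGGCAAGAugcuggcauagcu
miR-146a-5p: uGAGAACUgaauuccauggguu
miR-146b-5p: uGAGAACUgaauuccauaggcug
miR-155-5p: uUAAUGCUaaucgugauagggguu

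The 7 hairpins thus carry 5 different seeds. miR-221-3p and miR-222-3p are identical over their first 8 bases and match at 11 of 21 compared positions. miR-146a-5p and miR-146b-5p are far closer, with the same bases at 20 of 22 positions and the differences G18A and U21C, counted from the 5′ end with the base of miR-146a-5p first. A read that fits several hairpins is divided in these counts and can leave fractions. All 14 arms had whole counts in all 3 libraries, and each arm was listed for 1 hairpin.

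The loci were placed on GRCh37, the build equal to the hg19 of the labels, by exact matches of the RefSeq sequences and the GENCODE annotation. MIR21 lies at chr17:57918627-57918698 on the plus strand, within an exon of at least 1 transcript of the protein-coding gene VMP1. MIR221 (chrX:45605585-45605694) and MIR222 (chrX:45606421-45606530) lie 726 bases apart on the minus strand inside the long non-coding host gene MIR222HG, in an exon and an intron, respectively. MIR31 (chr9:21512114-21512184, minus strand) is in an intron of MIR31HG. MIR146A (chr5:159912359-159912457, plus strand) overlaps an exon of MIR3142HG, and MIR146B (chr10:104196269-104196341, plus strand) overlaps no other annotated gene. The arms of MIR155 match chr21:26946295-26946355 on the plus strand, in an exon of MIR155HG.

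The libraries held 1636481, 1791702 and 1947669 endogenous counts for control, miR-1 and miR-122, so that the limit of 3 counts taken for a count of 0, a one-sided 95% limit, stood at 1.83, 1.67 and 1.54 counts per 1000000 endogenous miRNA counts (CPM). The synthetic hairpins took a further 0.0216%, 38.1% and 24.4% of all miRNA counts and were left out of these totals. miR-3591-5p, with 1, 0 and 1756 counts, stayed in the totals and in the shares of all endogenous miRNAs given below. Whether its reads came from the miR-122 hairpin was not tested. Of the 14 arms, 10 had at least 10 counts in control, 11 in miR-1 and 9 in miR-122. Of all 2580 endogenous miRNAs, 499, 519 and 516 did. Together the 14 arms held 4.30% of endogenous counts in control (95% Wilson interval 4.27% to 4.33%), 4.95% in miR-1 (4.92% to 4.99%) and 4.16% in miR-122 (4.13% to 4.19%). Guides of 5 of the 7 hairpins thus stood at 537 CPM or more in every library, and those of the other two, miR-146a and miR-155, had at most 10 counts. All levels are of sequenced reads, whose lengths were not examined. Ligation efficiency, which differs between miRNAs, was not calibrated here.

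**Figure D1:**
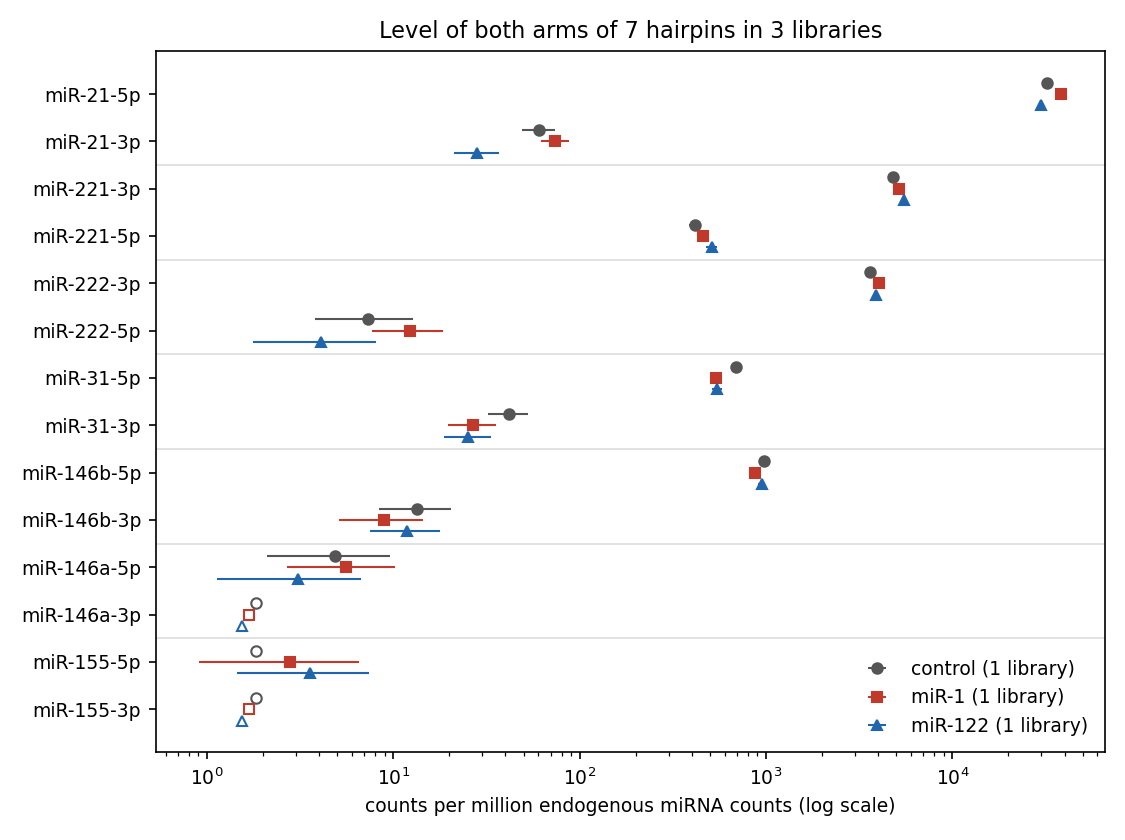
Level of each arm on a log axis in CPM, with 1 point per library (grey circles, control; red squares, miR-1; blue triangles, miR-122) and 95% exact Poisson intervals. Open symbols mark a count of 0, drawn at the limit of 3 counts. miR-21-5p stands at 30086 CPM or more in all 3 libraries, while miR-155-5p has 0, 5 and 7 counts.

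miR-21-5p was by far the most abundant member. It had 52957 counts in control, 68604 in miR-1 and 58598 in miR-122, or 32360, 38290 and 30086 CPM. It ranked 7, 7 and 9 among all endogenous miRNAs. In control, miR-20a-5p (65565 counts) and miR-10b-5p (61639 counts) stood directly above it, and miR-25-3p (47625 counts) and miR-423-3p (45072 counts) directly below. Its seed mate miR-590-5p had 16, 11 and 5 counts, so that miR-21-5p made up 99.97%, 99.98% and 99.99% of the counts with this seed.

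The miR-221 and miR-222 guides were the next most abundant. miR-221-3p had 7880, 9295 and 10775 counts in control, miR-1 and miR-122 (4815, 5188 and 5532 CPM) and ranked 37, 36 and 35. miR-222-3p had 5909, 7284 and 7609 counts (3611, 4065 and 3907 CPM) and ranked 44, 39 and 40. Their common seed was thus carried by 8426, 9253 and 9439 CPM, less than the seed of miR-21-5p in each library. Within a library, miR-221-3p had 1.33 times the counts of miR-222-3p in control (exact interval 1.29 to 1.38), 1.28 times in miR-1 (1.24 to 1.32) and 1.42 times in miR-122 (1.38 to 1.46). The order was the same in all 3 libraries, and these ratios do not depend on how libraries are scaled. Neither does the ratio of miR-21-5p to miR-221-3p, which was 6.72 in control, 7.38 in miR-1 and 5.44 in miR-122.

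miR-146b-5p and miR-31-5p followed at under 1000 CPM. miR-146b-5p had 1589 counts in control, 1565 in miR-1 and 1848 in miR-122 (971, 873 and 949 CPM), at ranks 84, 88 and 81. miR-31-5p had 1135, 963 and 1066 counts (694, 537 and 547 CPM), at ranks 100, 112 and 109. The counting intervals of these 2 guides did not overlap within any library. No other miRNA with a RefSeq sequence in the table shares the seed of miR-31-5p.

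The miR-146 seed was held almost wholly by miR-146b. miR-146a-5p had 8 counts in control, 10 in miR-1 and 6 in miR-122, or 4.89, 5.58 and 3.08 CPM. It made up 0.501%, 0.635% and 0.324% of the counts with this seed, and the highest upper bound of its 95% Wilson intervals was 1.16%, in the miR-1 library. In that library, the only one with at least 10 counts of both, miR-146b-5p had 156.5 times the counts of miR-146a-5p (exact interval 84.9 to 327). The 2 guides share their first 17 bases. The part of shortened or misread miR-146b-5p reads in the counts of miR-146a-5p was not tested. The arm miR-146a-3p also had 0 counts in every library.

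miR-155 was at or near the limit of detection. miR-155-5p had 0 counts in control, 5 in miR-1 (2.79 CPM, exact Poisson interval 0.906 to 6.51) and 7 in miR-122 (3.59 CPM, 1.44 to 7.41), and miR-155-3p had 0 counts in all 3. The exact interval of the control library was 0 to 2.25 CPM and overlapped both others, which does not settle whether miR-155-5p differed between libraries. Set against the limit of 3 counts in control, the 5 and 7 counts stood 1.56-fold and 2.09-fold higher after scaling on endogenous miRNAs. Both values rest on few counts of single libraries, and no difference was tested. These few counts can be read beside those of the induced miRNAs where no hairpin for them was present: miR-122-5p had 10 counts each in the control and miR-1 libraries, and miR-1-3p had 166 in control and 369 in miR-122. The part of carried-over reads in the counts of miR-155-5p and of miR-146a-5p, and so in the ratio of miR-146b-5p to miR-146a-5p, was not tested. The study later expressed miR-155 from the same vector, having picked it for its low level in this profile, and those lines were not analysed here.

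**Figure D2:**
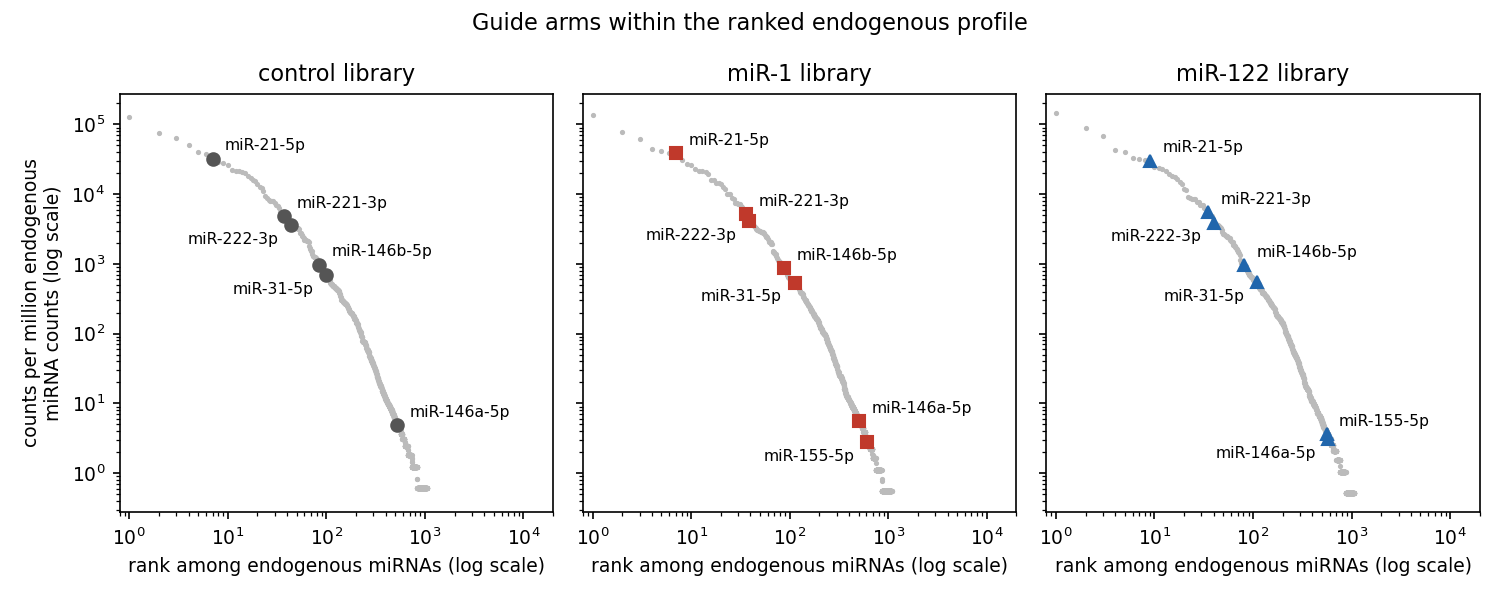
CPM against rank, both on log axes, for endogenous miRNAs with at least 1 count in each library (grey), with the guide arms of the 7 hairpins as coloured symbols. miR-21-5p ranks 7, 7 and 9, miR-146a-5p ranks 522, 506 and 582, and miR-155-5p, at 0 counts in control, is absent from that panel.

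The order of the guides was the same in all 3 libraries for the 5 that were abundant, miR-21-5p, miR-221-3p, miR-222-3p, miR-146b-5p and miR-31-5p, and no 2 neighbours among them had overlapping counting intervals. Next came a passenger arm, miR-221-5p, whose 683, 818 and 994 counts overlapped those of miR-31-5p within counting error in the miR-122 library only. At the low end, the intervals of miR-146a-5p overlapped those of the arms next to it in each library, so that its place in the order is not fixed.

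Arm use differed widely between hairpins. In mir-221 the passenger miR-221-5p made up a sizeable part, with 86.7 counts per 1000 guide counts in control (exact interval 80.0 to 93.7), 88.0 in miR-1 (81.8 to 94.5) and 92.3 in miR-122 (86.4 to 98.5). In its neighbour mir-222 the passenger miR-222-5p had 12, 22 and 8 counts, or 2.03 (1.05 to 3.55), 3.02 (1.89 to 4.58) and 1.05 (0.454 to 2.07) per 1000 guide counts. The intervals of these neighbouring hairpins lay far apart in each library, although their guides differed by at most 1.42 times. In mir-31 the passenger miR-31-3p had 68, 48 and 49 counts, or 59.9, 49.8 and 46.0 per 1000 guide counts, with overlapping intervals. In mir-146b, miR-146b-3p had 22, 16 and 23 counts, or 13.8, 10.2 and 12.4 per 1000, also with overlapping intervals. The sequence of miR-146b-3p has a second exact match in the genome, at chr9:96727242-96727263 on the plus strand and outside any annotated gene, and reads from either place would be counted alike.

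The passenger of mir-21 was low in every library and lowest in the miR-122 library. miR-21-3p had 99 counts in control, 133 in miR-1 and 55 in miR-122. This is 1.87 counts per 1000 guide counts in control (exact interval 1.52 to 2.28), 1.94 in miR-1 (1.62 to 2.30) and 0.939 in miR-122 (0.707 to 1.22). The interval of the miR-122 library lay below both others, which overlapped. Relative to control, passenger per guide in mir-21 was 1.98-fold lower in the miR-122 library. Across the 113 hairpins with both arms past the count filter, 12.4% differed at least 2-fold in passenger per guide between these libraries (7.08% higher and 5.31% lower in miR-122), and 7 hairpins, mir-21 among them, lay at or below its value. Between the miR-1 and miR-122 libraries, mir-21 and mir-222 passed 2-fold (2.05-fold and 2.77-fold higher in miR-1), against 12.4% of all 113 hairpins, of which 6.19% were higher and 6.19% lower. mir-222 had the highest value of all 113 there, but rests on 22 and 8 counts of its passenger. Between miR-1 and control, 0 of the 5 member hairpins passed, against 4.42% of all (3.54% higher, 0.885% lower).

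**Figure D3:**
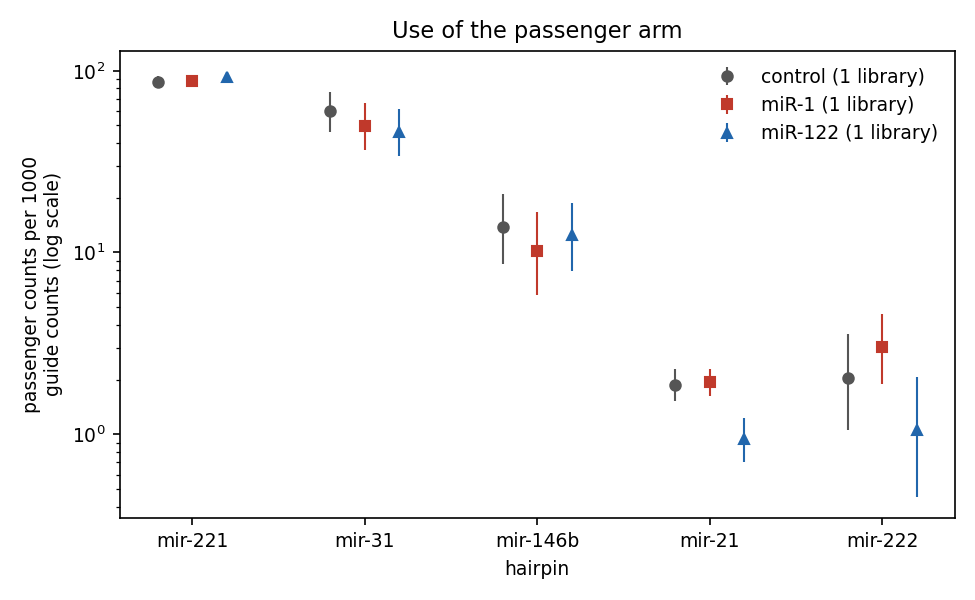
Passenger counts per 1000 guide counts, on a log axis, for the 5 hairpins with enough counts of both arms, with 1 point per library (grey circles, control; red squares, miR-1; blue triangles, miR-122) and 95% exact binomial intervals. The mir-221 points lie between 86.7 and 92.3, and the mir-21 point of the miR-122 library, at 0.939, lies below the other two.

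The libraries were then compared for the 10 arms that averaged 10 counts or more, after scaling on endogenous miRNAs, with log2 ratios taken at a pseudocount of 0.5 counts. The other 4 arms, both of mir-146a and mir-155, did not reach that mean. In miR-1 over control, 0 of the 10 arms differed by at least 2-fold, beside 3.31% of all 514 endogenous miRNAs past the filter (2.14% higher, 1.17% lower). The median log2 ratio of the 10 arms was 0.16, with 6 above 0 and 4 below, beside a median of 0.00 for all 514. In miR-122 over control, 1 of the 10 arms passed 2-fold, and was lower, beside 9.92% of all (3.5% higher, 6.42% lower), and the median of the arms was -0.05, beside -0.03 for all. In miR-1 over miR-122, 2 of the 10 arms passed, both higher, beside 8.56% of all (5.45% higher, 3.11% lower), with medians of -0.04 and 0.01.

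Among the guides, miR-21-5p was slightly higher in the miR-1 library. Its ratio of miR-1 over control was 1.21 (exact interval 1.20 to 1.23), a log2 ratio of 0.28, while its ratio of miR-122 over control was 0.991 (0.979 to 1.00). Although the intervals are narrow at this depth, a log2 ratio of 0.28 is less than the spread of 0.31 over all miRNAs in that comparison, taken as the scaled median absolute deviation. Here and below, this spread includes miRNAs averaging as few as 10 counts, so counting error widens it for abundant miRNAs. The rank neighbours miR-20a-5p, miR-10b-5p, miR-25-3p and miR-423-3p had log2 ratios of 0.00, 0.17, 0.10 and 0.01 in miR-1 over control. The miRNAs averaging 100 counts or more whose centred log2 counts over the 3 libraries lay closest to those of miR-21-5p, of 263 in all, were miR-330-5p, miR-149-5p and miR-181a-3p, at distances of 0.03 each. With 3 libraries such likeness is weak.

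Both miR-221 and miR-222 guides were a little above control in both libraries. The log2 ratio of miR-221-3p was 0.15 in miR-1 over control and 0.29 in miR-122 over control, and that of miR-222-3p was 0.21 in each. The passenger miR-221-5p had log2 ratios of 0.17 and 0.38. All these values lay within the spread over all miRNAs, 0.31 and 0.52, which miRNAs of low count widen. Both comparisons use the same control library.

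miR-31 was below control on both arms. The log2 ratio of miR-31-5p was -0.33 in miR-1 over control (exact interval -0.46 to -0.21) and -0.25 in miR-122 over control (-0.37 to -0.13). That of miR-31-3p was -0.59 (-1.16 to -0.04) and -0.63 (-1.19 to -0.08). The values of -0.33, -0.59 and -0.63 lay beyond the spread over all miRNAs in their comparison, and -0.25 lay within it. All 4 had intervals below 0, as did 20% of all 514 miRNAs in miR-1 over control and 25.3% in miR-122 over control, and again the control library is shared. None reached 2-fold, and with 1 library of each line a difference between lines and a difference between libraries cannot be told apart.

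miR-146b-5p had log2 ratios of -0.12 in miR-1 over control (exact interval -0.22 to -0.01) and 0.06 in miR-122 over control (-0.04 to 0.16), both within the spread over all miRNAs. miR-146b-3p, at -0.54 and -0.09, had intervals that included 0. The arm past 2-fold in miR-122 over control was miR-21-3p, at a ratio of 0.498 (exact interval 0.351 to 0.699), 2.01-fold lower, while its ratio of miR-1 over control was 1.26 (0.964 to 1.65). The former lay on the limit: with size factors from the median of ratios or with a pseudocount of 5, 0 arms passed. In miR-1 over miR-122, miR-21-3p was 2.53-fold higher (1.84 to 3.53) and miR-222-5p was 2.88-fold higher (1.23 to 7.48), both passenger arms of few counts. The log2 ratios of miR-222-5p over control were 0.76 in miR-1 and -0.71 in miR-122, with intervals that included 0.

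These directions were read after scaling by the trimmed mean of M-values (TMM) over endogenous miRNAs. Scaling by the total endogenous count turned that of miR-146b-5p in miR-122 over control, from 0.06 to -0.03. When the induced miRNAs were kept in the library total, the median of all 514 miRNAs moved by -0.72 in miR-1 over control and by -0.49 in miR-122 over control, and 9 and 10 of the 10 arms were then below 0.

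**Figure D4:**
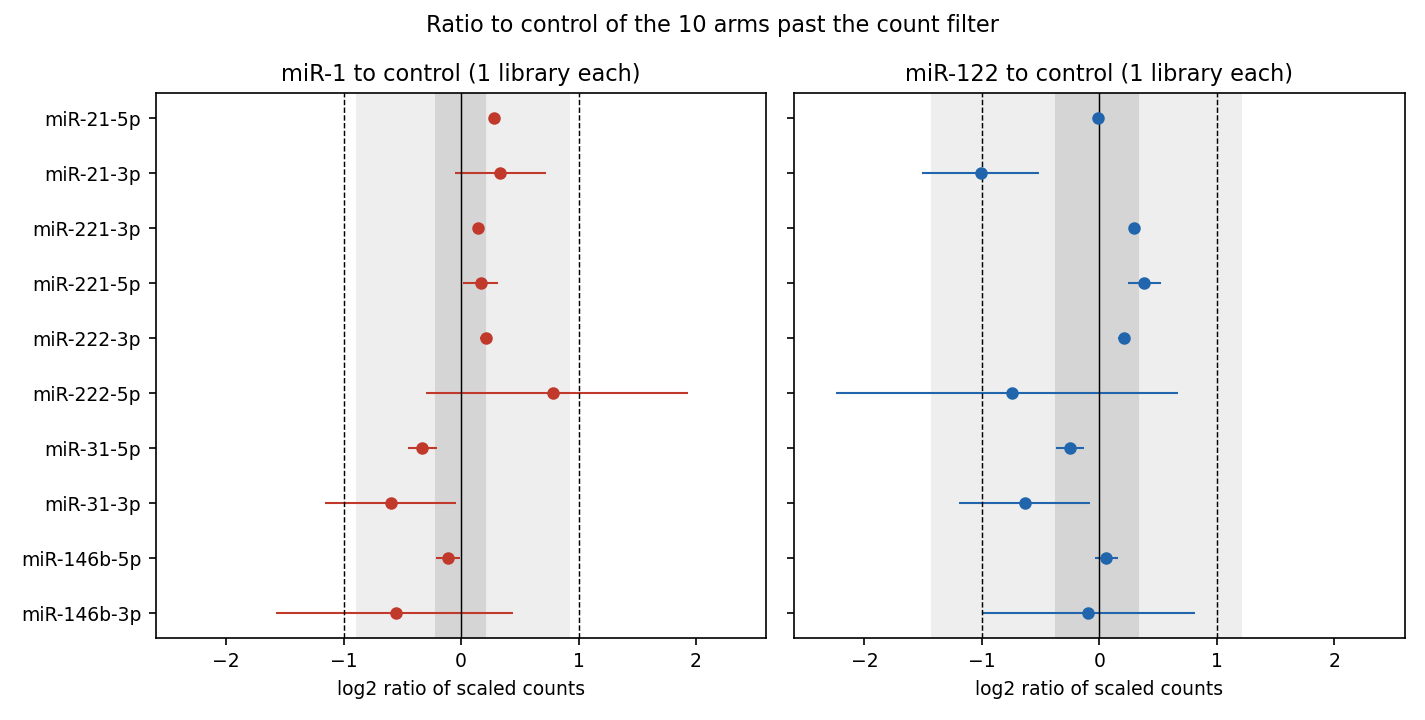
Log2 ratio of scaled counts to control, without pseudocount, for the 10 arms past the count filter, with 95% exact counting intervals (left, miR-1; right, miR-122; 1 library each). The dark band holds the middle 50% and the light band the middle 95% of all 514 endogenous miRNAs, and dashed lines mark 2-fold. miR-31-5p and miR-31-3p lie left of 0 in both panels, and miR-21-3p lies on the lower 2-fold line in the right panel.

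Other miRNAs of tumours and inflammation were read from a list of 12 hairpins with 24 arms. Of these arms, 9 had at least 10 counts in each library, beside 499, 519 and 516 of all 2580 endogenous miRNAs in control, miR-1 and miR-122. In any of the libraries, 4 of the arms reached 100 counts. miR-34a-5p, a target of p53 that restrains the cell cycle, had 739 counts in control, 626 in miR-1 and 673 in miR-122. Its relative miR-34c-5p had 242, 213 and 207 counts. miR-132-3p, induced through CREB, had 319, 297 and 309 counts. Its partner arm miR-132-5p had 174, 164 and 355. The 5 arms at 0 counts in all 3 libraries were miR-203a-5p, miR-205-3p, miR-371a-3p, miR-373-5p and miR-373-3p, the last 3 from an oncogenic cluster of germ cell tumours. The remaining listed arms of that cluster had few counts in control, miR-1 and miR-122. miR-371a-5p had 0, 1 and 0, miR-372-5p had 2, 0 and 0, and miR-372-3p had 2, 5 and 8. In miR-1 over control, 1 of the 9 arms past the count filter differed by at least 2-fold, beside 3.31% of all miRNAs. It was miR-135b-5p, with 41 and 20 counts. In miR-122 over control none of the 9 did, beside 9.92% of all, with a median log2 ratio of -0.20 in each comparison.

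Most arms of miRNAs that mark other cell types, blood cells, endothelium, and smooth muscle with fibroblasts, had under 10 counts. At least 10 counts were found for 3, 3 and 5 of 13 arms in control, miR-1 and miR-122. Of all 2580 endogenous miRNAs, 499, 519 and 516 reached that limit, so low counts were not particular to these markers. None of the 3 arms past the count filter differed 2-fold from control, beside 3.31% of all miRNAs in miR-1 and 9.92% in miR-122. The 4 hairpins of blood cells (mir-142, mir-223, mir-150 and mir-451a) summed to 22 counts in control, 16 in miR-1 and 27 in miR-122 over 7 arms, with both arms of miR-223, a defining miRNA of myeloid cells, at 0 counts. The hairpins mir-143 and mir-145 of smooth muscle and fibroblasts summed to 115, 180 and 113 counts. The endothelial miR-126 was an exception, with 5319, 6314 and 7533 counts of miR-126-3p, between miR-222-3p and miR-146b-5p in each library. The part of other cells in the members' values was not tested. As in any bulk sample, fewer cells with a miRNA and less of it per cell cannot be told apart.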

How the data were processed

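Small RNA libraries had been made from 1000 ng of total RNA with a NEBNext kit, 1 for each of 3 cell lines. The authors trimmed adapters, removed reads under 18 nt, collapsed identical reads and ran miRDeep2 against the human hairpins of miRBase 21 plus their synthetic hairpins. The deposited table held estimated counts, in which multi-mapping reads are shared out, and the authors' RPM values, which equal the counts per 1000000 miRNA counts to within 0.00652 and were not used further. Pooled totals in the table were not used. Fractions occurred in 309 of 2817 rows.

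Counts were summed per mature miRNA. Endogenous miRNAs averaging 10 counts or more were kept (514 of 1351 with any count) and scaled by TMM (edgeR 4.0.16, R 4.3.3), and log2 ratios used a pseudocount of 0.5. Counts with fractions were rounded only for intervals, since no count model was fitted. Intervals were exact Poisson for levels, Clopper-Pearson for ratios and Wilson for shares. They cover counting error only, since reads carried no molecular identifiers. No test was possible with 1 library per group, so 2-fold is a limit of size and no p-value is given. The ratio step was tested on simulated data. Arms were named guide or passenger by their summed counts. All 14 arms were named, and other miRNAs by seed, by rank next to miR-21-5p, by distance of centred log2 counts, or from lists, where names went to arms with at least 100 counts in any library and to arms at 0 in all. The comparison of arm use with 113 hairpins and the naming of miR-3591-5p, miR-135b-5p, miR-371a-5p and both arms of mir-372 came after values had been seen. The members and lists were chosen with earlier results of these data known. Sequences came from RefSeq tables (2275 of 2580 miRNAs matched by name). Alternatives covered scaling, count filter, pseudocount, fold limit, detection limit, depth and denominator.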

Additional observations from a re-analysis of the deposited data

How the results depend on the processing

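No paired analysis was possible because only single libraries were there to compare, and for the same reason no library could be left out. Over 42 results, 174 alternatives were computed: 121 stayed within the limits set (1.5 times for counts of miRNAs, 95% counting intervals for other values), 53 moved beyond them and 0 reversed a ratio past 2-fold. Of the 120 alternatives for log2 ratios, 27 moved, of which 20 came from keeping the induced miRNAs in the library total and 7 from scaling by the endogenous total, and each of those 7 was of miR-21-5p, miR-221-3p or miR-222-3p, whose intervals are narrow. Detection changed little, with 9 to 12 arms present in a library under each limit.

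Member arms were counted among 10 past the filter, 12 without a filter and 6 at an average of 100 counts or more. The number at least 2-fold apart in miR-1 over control was 3 with the induced miRNAs in the total and 1 without a count filter (miR-155-5p). At 1.5-fold the number was 2. In miR-122 over control it was 0 with the median of ratios, with a pseudocount of 5 or for miRNAs averaging 100 counts or more, and it was 3 with the induced miRNAs in the total, 2 without a filter and 3 at 1.5-fold. In miR-1 over miR-122 it was 0 for miRNAs averaging 100 counts or more, which leaves out both passenger arms. The counts over all endogenous miRNAs follow in the order miR-1 over control, miR-122 over control and miR-1 over miR-122. They were 95, 144 and 138 without a filter, and 86, 137 and 118 at 1.5-fold. Of the 263 miRNAs averaging 100 counts or more, 2, 10 and 8 passed. With the induced miRNAs in the total, no such count was made over all miRNAs. A pseudocount of 5 gave 8 in miR-1 over control and 28 in miR-1 over miR-122. The share held by the members was 4.25%, 4.90% and 4.10% with the most abundant arm of each hairpin alone, and 3.07% in miR-1 and 3.14% in miR-122 with all miRNA counts as denominator. The filter, the fold limit and the denominator shift these values by construction, and for the other settings the cause was not tested. Depth limits miR-155, miR-146a and miR-222-5p, where a few counts decide the ratio.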

Other observations

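The arms of mir-132 departed from each other in the miR-122 library. miR-132-5p had 174 counts in control, 164 in miR-1 and 355 in miR-122, a log2 ratio of 0.87 in miR-122 over control, while miR-132-3p had 319, 297 and 309 counts, a log2 ratio of -0.20. The more abundant arm was thus the 3p arm in control and miR-1 and the 5p arm in miR-122. Counts of the 5p arm per count of the 3p arm had a log2 change of 1.07 in miR-122 over control. Such changes were not particular to mir-132. Of 113 hairpins, 12.4% differed at least 2-fold in passenger per guide between these libraries (7.08% higher and 5.31% lower in miR-122). mir-212, the neighbour of mir-132, had 63, 68 and 98 counts of miR-212-5p and 22, 13 and 21 of miR-212-3p, with log2 ratios of 0.48 and -0.22 in miR-122 over control. This is a single library, the arms were singled out after their values had been seen, and no test was run.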
